A study of Homo sapiens with 12 samples.

Results

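KM-H2, 1 of 3 established cell lines of classical Hodgkin lymphoma (cHL) in the study, was set against L428 and L1236 by RNA sequencing. The members were the 2 KM-H2 libraries, compared with the 2 L428 and the 2 L1236 libraries, so that 6 of the 12 libraries of the series entered the comparison. The question was which genes set KM-H2 apart, meaning that its level in each KM-H2 library lay beyond the level in all 4 other cHL libraries. Of 26210 genes in the deposited table, 13468 reached 1 FPKM (a level normalised for gene length and library size) in at least 2 of the 6 libraries and were tested, and 2737 of these were called.

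The series covered total RNA, depleted of ribosomal RNA, from these cHL cell lines and from the B-cell lines Namalwa, of Burkitt lymphoma, and Reh, of B-cell precursor leukaemia. KM-H2, L428 and L1236 were untreated and grown in IMDM, and Namalwa and Reh in RPMI, each with 10% FCS and 2 mM glutamine at 37 °C and 5% CO2. Reh was also sequenced after treatment with the phorbol ester PMA at 2 ng/ml (Reh_PMA), and all groups were in duplicate. The duplicates were not stated to come from separate cultures, so p-values measured only the spread between duplicate libraries, and the comparison was of 1 cell line with 2 others, each line standing for itself alone.

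Hodgkin/Reed-Sternberg (HRS) cells are the malignant cells of cHL. They derive from germinal centre B cells but have lost most of the B-cell programme, and they carry markers such as CD30 together with genes of other blood lineages. NF-κB and JAK-STAT signalling, cytokines and receptors of the TNF family are known features of these cells, and cell lines from different patients share them to different degrees.

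The libraries differed in composition within each line. Small RNA genes held 24.5% and 41.3% of the summed FPKM in KM-H2, 27.6% and 62.5% in L428 and 28.3% and 51.0% in L1236, where the first value of each pair is that of the column with suffix 0 and the second that of suffix 1. Ribosomal protein genes held 19.8% and 20.5% in KM-H2, 23.5% and 6.08% in L428 and 18.7% and 10.3% in L1236, so that L428_1 and L1236_1 stood apart. The SD across genes of the difference between duplicates, on the log2 scale, was 0.88 in KM-H2, 0.96 in L428 and 0.89 in L1236, against 0.39 to 0.52 in the B-cell lines. Of 82 tested ribosomal protein genes 2 were called higher in KM-H2 and 0 lower (limma and no overlap; 0 lower at unadjusted p < 0.05), against 11.1% and 9.22% of all tested genes, with a median difference of 0.64 that was -0.31 within suffix 0 and 1.3 within suffix 1. The part of these library features in the differences that follow was not tested.

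**Figure D1:**
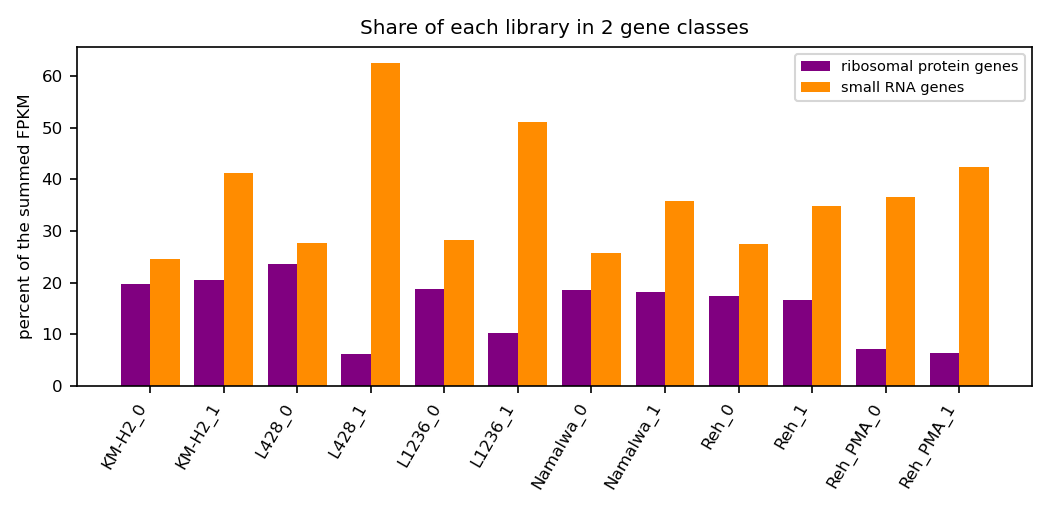
Share of each library's summed FPKM, in percent, in ribosomal protein genes and in small RNA genes, 1 pair of bars per library. L428_1 had 6.08% and L1236_1 10.3% in ribosomal protein genes, against 18.7% to 23.5% in the other 4 cHL libraries.

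KM-H2 differed from the other cHL cell lines at 1495 genes that were higher (11.1% of those tested) and 1242 that were lower (9.22%). A gene was called where limma's adjusted p was under 0.05, where KM-H2 differed from the mean of L428 and L1236 by at least 1 on the log2(FPKM + 1) scale, and where the libraries did not overlap. Lack of overlap alone held for 2708 genes above (20.1%) and 2459 below (18.3%). By the same rule L428 stood apart at 1227 higher (9.11%) and 902 lower genes (6.7%), and L1236 at 1265 (9.39%) and 952 (7.07%). In pairs, KM-H2 differed from L428 at 3409 genes (25.3%) and from L1236 at 3429 (25.5%), while L428 and L1236 differed at 2669 (19.8%). These comparisons share libraries, so their counts are not independent of each other. Leaving out 1 library moved several of these counts by over 1.5 times: KM-H2 against L428 to 1884 without L428_1, KM-H2 against L1236 to 1746 without L1236_0 and 1673 without L1236_1, and L428 against L1236 to 1657 and 1423 without L428_0 and L428_1 and to 1022 and 1046 without L1236_0 and L1236_1. In either direction together, L428 stood apart at 988 genes without L428_1 and 1364 without L1236_0, and L1236 at 975 without L1236_0 and 963 without L1236_1. With L428_1 and L1236_1 both left out, limma called 0 genes for KM-H2 against L428 (3042 at unadjusted p < 0.05), 299 for KM-H2 against L1236 and 196 for L428 against L1236, and 0 apart in L428 (2707 at unadjusted p < 0.05) and 246 in L1236.

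Most of the called genes differed from each of the other lines and within each column suffix. Among the higher genes 1021 also passed the test and the size of 1 against L428 and L1236 separately, and among the lower genes 667 did. Taking the difference within suffix 0 and within suffix 1, 1234 higher genes were at 1 or more in each and 987 lower genes at -1 or less in each. Libraries of the same suffix were not stated to have been processed together. With the other 4 libraries treated as a single group, so that the gap between L428 and L1236 counted as spread, 943 higher and 549 lower genes remained, and a size of at least 2 held for 538 and 390. Without L428_1 and L1236_1, the libraries with few ribosomal protein reads, 4 libraries and 1 residual degree of freedom were left, and 275 higher and 313 lower genes were called. At the limit of size, IFI27L2 was just inside at 1.0006 and CCDC34 just outside at 0.9999, and RMDN2 just inside at -1.0007 and MFSD6 just outside at -1. IFI27L2, CCDC34, RMDN2 and MFSD6 each changed sides under at least 1 other setting of pseudocount, filter or scaling. Of the 183 called members of the gene lists described below, 53 lost their call without KM-H2_0, 46 without KM-H2_1, 17 and 20 without L428_0 and L428_1, 35 and 38 without L1236_0 and L1236_1, and 79 with L428 and L1236 as a single group.

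Some of the higher genes were near silence in the other cHL cell lines. Of the 1495, 576 were under 1 FPKM in all 4 other libraries, which held for 636 of all tested genes (4.72%); the filter admitted such genes only through KM-H2. Of the 576, 150 were listed at 0 in all 4. Of the 1242 lower genes, 470 were under 1 FPKM in both KM-H2 libraries, which held for 1291 of all tested genes (9.59%). Whether a 0 in the deposited table was a measured absence could not be told in every case: EDF1, a widely expressed transcriptional coactivator, stood at 193 and 269 FPKM in KM-H2 and 146 and 164 in L428 but at 0.36 and 0 in L1236, and the neighbouring RABL6 at 26.5 and 28.2, 21.98 and 14.7 and 0 and 0. EDF1 and RABL6 were chosen after their values were seen, and their calls rested on L1236. Treated as a single group of 4, L428 and L1236 left EDF1 and RABL6 uncalled (adjusted p 0.309 to 0.347).

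**Figure D2:**
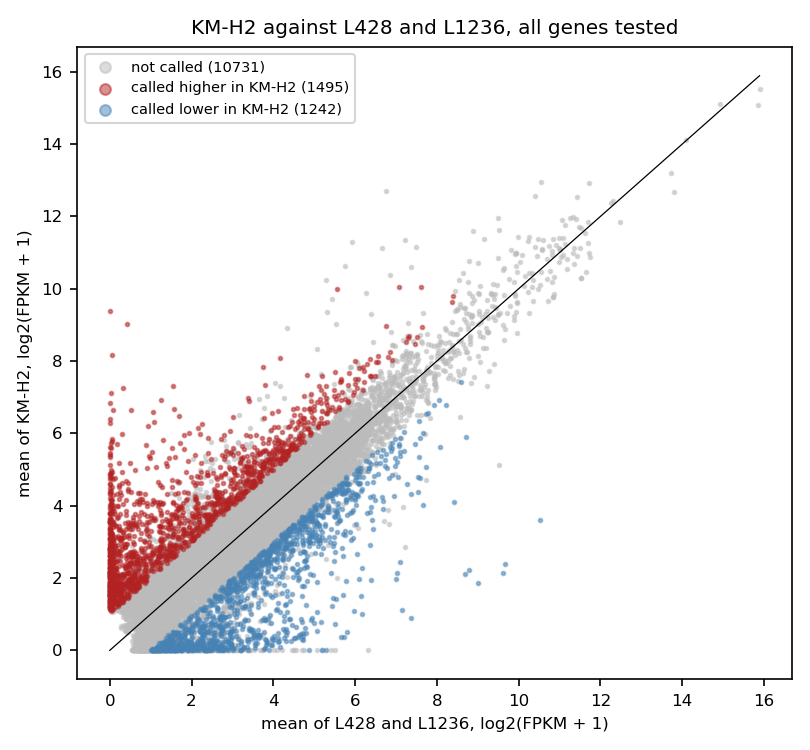
Mean of the KM-H2 libraries against the mean of L428 and L1236, both as log2(FPKM + 1), 1 point per tested gene, with the diagonal as a line. Red points are the 1495 genes called higher in KM-H2 and blue points the 1242 called lower, and many of the red points lie along the left edge, where the other lines were near 0.

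Several germline genes were called higher in KM-H2. Of 15 tested cancer-testis antigen genes, which are active in germ cells and silent in most adult tissue, 11 were higher and 1 lower, against 11.1% higher and 9.22% lower of all tested genes, with a median difference of 2.41 against -0.0185. This share and median depended on the filter: 10 of the 15 were under 1 FPKM in all 4 L428 and L1236 libraries and were tested only because KM-H2 expressed them, and 15 of the 25 list genes in the table were tested. MAGEA4 had the largest difference of any gene named, at 710.5 and 629 FPKM in KM-H2 and listed at 0 in the other 10 libraries of the series (difference 9.39 ± 0.19 (SE), adjusted p 9.52e-05). CTAG2, a relative of the tumour antigen NY-ESO-1, stood at 128 and 99.7 FPKM and MAGEA1 at 94.7 and 63.6, again with 0 in the other 10 (difference 6.83 ± 0.21 (SE), adjusted p 0.000239, and difference 6.30 ± 0.23 (SE), adjusted p 0.000239). SSX1, the partner of SS18 in synovial sarcoma fusions, was at 61.4 and 44.1 FPKM in KM-H2, 0 and 0.0662 in L428 and 0 and 0 in L1236 (difference 5.71 ± 0.22 (SE), adjusted p 0.000244). MAGEA10 at 60.5 and 26.1 FPKM, MAGEA6 at 27.9 and 25.8 and MAGEC2 at 9.29 and 7.01 were also listed at 0 in L428 and L1236. MAGEA4, CTAG2, MAGEA1, SSX1, MAGEA10, MAGEA6 and MAGEC2 thus read at 7 FPKM or more in KM-H2 and near 0 in the other lines.

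Other members of the list behaved in several ways. MAGEB2 was present in all 3 lines, at 112 and 119 FPKM in KM-H2, 31.98 and 28.6 in L428 and 32.2 and 38.3 in L1236 (difference 1.79 ± 0.19 (SE), adjusted p 0.00183). PAGE5 was at 2.8 and 1.27 FPKM in KM-H2 and at most 0.38 elsewhere among the cHL libraries. BAGE, at 8.7 and 1.93, and MAGEC1, at 8.79 and 1.55, were listed at 0 in L428 and L1236 but differed widely between the KM-H2 duplicates. DDX43, an RNA helicase gene, was the lower member, at 1.36 and 1.44 FPKM in KM-H2 against 3.64 and 5.83 in L428 and 8.91 and 11.3 in L1236. PRAME and GTSF1 were expressed in all 6 libraries and TEX14 at low level, and none of these was called (differences 0.08, 0.78 and -0.93), although TEX14 passed at pseudocounts of 0.5 and 0.1 (-1.39 and -2.48) and after quantile normalization (-1.03). MAGEA6 has near-identical relatives such as MAGEA3, listed at 0.341 and 0.111 FPKM in KM-H2, as do CTAG2, SSX1 and BAGE, so how reads were divided among copies is uncertain for these genes. Without L1236_0, TEX14 was called, with a difference of -1.02 and an adjusted p of 0.0194. BAGE was not called without L1236_0 or L1236_1, with differences of 2.41 and 2.41 and adjusted p-values of 0.0616 and 0.0635. MAGEC1 was not called without L428_0, L428_1, L1236_0 or L1236_1, with differences of 2.32, 2.32, 2.32 and 2.32 and adjusted p-values of 0.0572, 0.0621, 0.0835 and 0.0852. Without KM-H2_0 the difference of BAGE was 1.55. Without KM-H2_0 the difference of MAGEC1 was 1.35. DDX43 lost the call against L428 and L1236 as a single group of 4 (adjusted p 0.0568).

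Because MAGEA4 had the largest difference named, the 150 bases before the annotated start of MAGEA4 and of 4 other MAGE genes called higher are shown from the RefSeq promoter table (GRCh38.p14), which held 7 of the 11 higher cancer-testis genes and did not hold MAGEA1, MAGEA10, CTAG2 and BAGE. Capitals mark the letters GGATGT on either strand. CGGAA was searched first, over 250 bases, and was present in 2 of the 7 promoters and in 30.7% of 27303 promoters of the table; over 150 bases it was present in 2 of the 7 and in 23.0%. GGATGT and the window of 150 bases were chosen after the sequences had been read, and GGATGT was present in 5 of the 7, all of them MAGE genes, and in 4.99% of all promoters. A match is a description of these letters and nothing was drawn from it. The positions are chrX:151912324-151912473 on the plus strand for MAGEA4, chrX:152769690-152769839 (minus) for MAGEA6, chrX:30215413-30215562 (plus) for MAGEB2, chrX:141903744-141903893 (plus) for MAGEC1 and chrX:142205291-142205440 (minus) for MAGEC2.
MAGEA4: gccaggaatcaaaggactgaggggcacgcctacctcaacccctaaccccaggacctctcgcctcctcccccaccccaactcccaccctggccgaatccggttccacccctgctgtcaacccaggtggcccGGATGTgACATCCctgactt
MAGEA6: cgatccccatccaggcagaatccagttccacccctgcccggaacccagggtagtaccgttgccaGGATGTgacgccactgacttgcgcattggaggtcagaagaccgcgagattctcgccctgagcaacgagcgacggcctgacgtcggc
MAGEB2: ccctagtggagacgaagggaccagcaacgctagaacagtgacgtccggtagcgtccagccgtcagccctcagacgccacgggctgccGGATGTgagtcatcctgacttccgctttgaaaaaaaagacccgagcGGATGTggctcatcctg
MAGEC1: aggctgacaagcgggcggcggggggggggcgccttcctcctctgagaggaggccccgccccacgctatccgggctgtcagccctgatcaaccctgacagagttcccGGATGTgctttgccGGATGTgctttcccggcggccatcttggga
MAGEC2: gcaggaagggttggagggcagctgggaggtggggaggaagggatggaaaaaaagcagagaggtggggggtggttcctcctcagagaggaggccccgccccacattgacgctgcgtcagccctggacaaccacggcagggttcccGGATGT

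**Figure D3:**
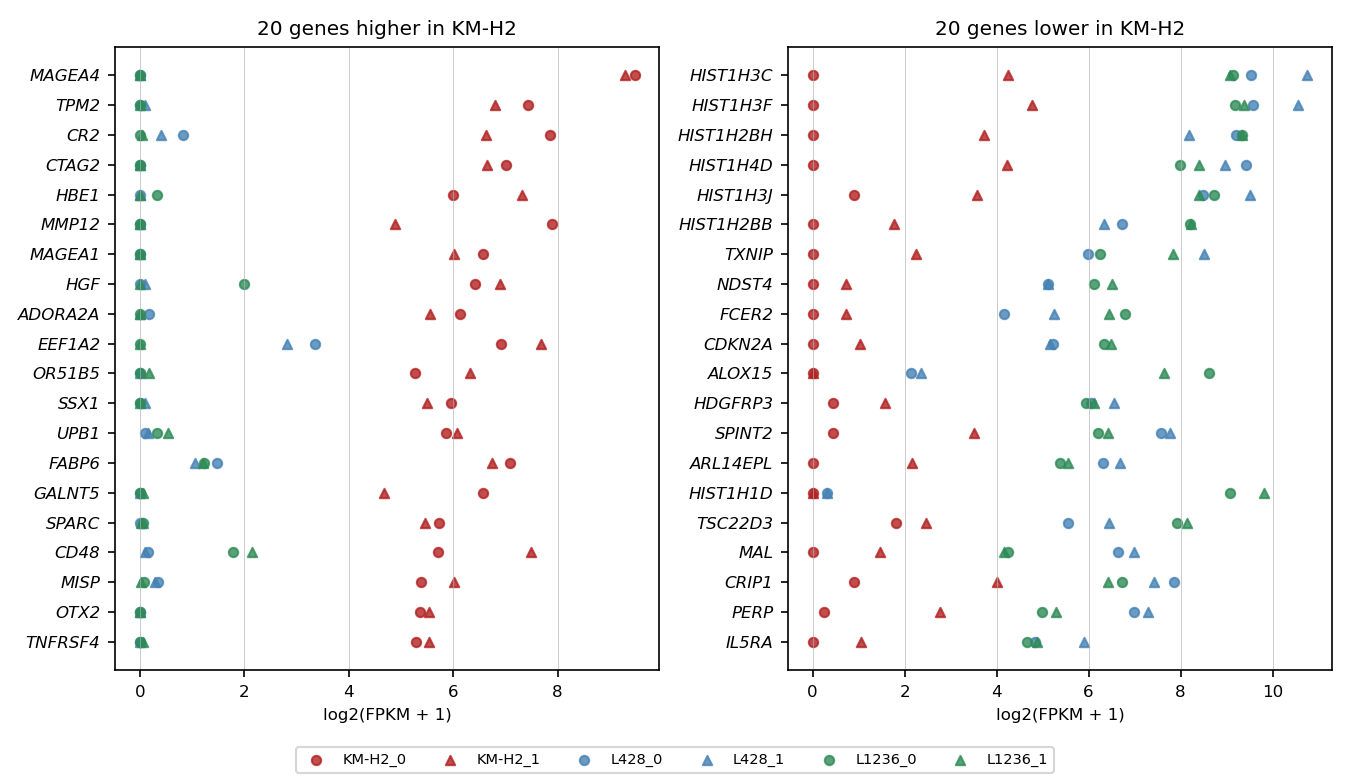
The 20 called genes with the largest positive and the 20 with the largest negative difference, small RNA genes and unnamed loci left out, each at log2(FPKM + 1) on the horizontal axis in the 6 cHL libraries (circles for column suffix 0, triangles for suffix 1). For 16 of the 20 higher genes all 4 L428 and L1236 libraries were under 1 FPKM, and for 4 of the 20 lower genes both KM-H2 libraries were.

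A stretch of chromosome 11 that holds embryonic and fetal globin genes and olfactory receptor genes was read in KM-H2 at levels that the other cHL libraries, at most 0.257 FPKM for any gene of the stretch, did not reach. HBE1, the embryonic beta-like globin gene, was at 62.6 and 158 FPKM in KM-H2, 0 and 0 in L428 and 0.257 and 0 in L1236 (difference 6.57 ± 0.39 (SE), adjusted p 0.000385). HBG2, a fetal globin gene, was at 12.3 and 30.03 FPKM against 0 in the other lines (difference 4.34 ± 0.35 (SE), adjusted p 0.000782), and OR51B5, an olfactory receptor gene, at 37.4 and 79.1 against at most 0.135 (difference 5.75 ± 0.33 (SE), adjusted p 0.000373). These genes and 8 further olfactory receptor genes, from OR51B4 to OR52D1, formed the longest run of neighbouring tested genes called in the same direction, 11 genes at chr11:5274418-5526882 (GRCh37). The other 8 stood between 1.1 and 9.05 FPKM in KM-H2. In the GENCODE annotation used here for positions, the gene models of HBG2, HBE1 and OR51B5 span most of the run and overlap the rest. The annotation behind the FPKM values was not named and its models may differ. Reads may be shared, and the separate levels are uncertain. The adult globin genes HBA1, HBA2 and HBB were listed at 0 in all 6 cHL libraries.

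The largest differences included 5 genes of the matrix, the cytoskeleton or glycosylation, grouped here after the ranking was seen. TPM2, which encodes an actin-binding tropomyosin, was at 172 and 111 FPKM in KM-H2, 0 and 0.0739 in L428 and 0 and 0 in L1236 (difference 7.09 ± 0.25 (SE), adjusted p 0.000239). MMP12, a macrophage elastase, was at 238 and 28.7 FPKM in KM-H2 and 0 in L428 and L1236 (difference 6.40 ± 0.78 (SE), adjusted p 0.00275), with a wide gap between the duplicates. SPARC, a matrix glycoprotein, was at 52.4 and 42.9 FPKM against at most 0.0484 in the other lines (difference 5.56 ± 0.20 (SE), adjusted p 0.000239). GALNT5, which starts O-glycosylation, was at 94.7 and 24.6 FPKM against at most 0.0445, and MISP, which acts on actin and the mitotic spindle, at 41.05 and 63.8 against at most 0.272.

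The remaining genes of the 20 largest differences had diverse roles. ADORA2A, an adenosine receptor, was at 68.9 and 45.8 FPKM in KM-H2 against at most 0.137 in the other cHL libraries, and its neighbour UPB1, an enzyme of pyrimidine breakdown, at 57.5 and 66.7 against at most 0.46 (difference 5.79 ± 0.24 (SE), adjusted p 0.000264, and difference 5.69 ± 0.20 (SE), adjusted p 0.000239). EEF1A2, a tissue-restricted elongation factor, was at 120.5 and 204 FPKM in KM-H2, 9.22 and 6.08 in L428 and 0 and 0 in L1236 (difference 5.76 ± 0.30 (SE), adjusted p 0.000329). FABP6, a bile acid binding protein, was at 136 and 106 FPKM against 1.78 and 1.07 in L428 and 1.35 and 1.32 in L1236 (difference 5.68 ± 0.23 (SE), adjusted p 0.000264). OTX2, a homeobox factor of forebrain and eye development, was at 40.4 and 45.3 FPKM in KM-H2 and listed at 0 in L428 and L1236 (difference 5.45 ± 0.18 (SE), adjusted p 0.000239).

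Of 17 tested genes of the B-cell receptor and B-cell surface 10 were higher in KM-H2 and 2 lower, with a median difference of 1.67, against 11.1% higher and 9.22% lower of all tested genes. Of the 10, 5 were under 1 FPKM in all 4 other libraries and so were tested only through KM-H2, and 8 of the 25 list genes in the table were not tested. CR2, the complement and Epstein-Barr virus receptor CD21, was at 231 and 97.7 FPKM in KM-H2, 0.764 and 0.331 in L428 and 0 and 0.023 in L1236 (difference 6.93 ± 0.38 (SE), adjusted p 0.000355). CD53, a tetraspanin of leukocytes, was at 36.96 and 35.9 FPKM against 5.33 and 4.65 and 0.83 and 2.02 (difference 3.32 ± 0.27 (SE), adjusted p 0.00076). Lower levels were reached by the inhibitory Fc receptor FCGR2B (11.4 and 13.2 FPKM), the adaptor PIK3AP1 (14.7 and 10.3), the adaptor BLNK (4.49 and 6.93) and the kinase SYK (2.89 and 1.9), the last listed at no more than 0.00927 in the other lines. FCRLA, a relative of the Fc receptors, was at 1.82 and 2.7 FPKM and the inhibitory receptor CD22 at 1.75 and 3.44, against at most 0.199 and 0.827 (difference 1.58 ± 0.19 (SE), adjusted p 0.00244, and difference 1.42 ± 0.24 (SE), adjusted p 0.00794). FCER2, the low-affinity IgE receptor CD23, went the other way, at 0 and 0.654 FPKM in KM-H2 against 17 and 37.2 in L428 and 109 and 85.8 in L1236 (difference -5.30 ± 0.39 (SE), adjusted p 0.00059), as did the tetraspanin CD37 at 2.47 and 6.24 against 11.2 and 9.02 and 18.4 and 22.4. MS4A1, which encodes CD20, was listed at 0 in all 3 lines. The B-cell marker set of 10 genes summed to 19.8 and 26.2 FPKM in KM-H2, led by BLK, to 4.37 and 4.02 in L428 and to 63.9 and 49.8 in L1236, where PAX5 led at 33.8 and 19.8. CD37 was not called without KM-H2_0, L428_0, L1236_0 or L1236_1, with differences of -1.08, -1.54, -1.68 and -1.55 and adjusted p-values of 0.0622, 0.0522, 0.0663 and 0.0818. Against the other 4 libraries as a single group, FCGR2B, PIK3AP1, BLNK, CD22, CD37 and BLK fell short of the call (adjusted p 0.0568 to 0.222).

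Among 19 tested transcription factors of the B lineage 3 were higher and 4 lower, with a median difference of -0.37 (all tested genes: 11.1% and 9.22%). Of the 3, 1 was tested only through KM-H2. LEF1, a mediator of WNT signalling and of early B-cell growth, was at 52.5 and 32.9 FPKM in KM-H2, 4.89 and 3.43 in L428 and 25.6 and 30.1 in L1236 (difference 1.81 ± 0.27 (SE), adjusted p 0.00522). MEF2C was at 2.27 and 1.74 FPKM in KM-H2 against 12.8 and 20.7 and 16.4 and 21.9, and TCF4, an E protein, at 7.47 and 6.62 against 43.1 and 56.6 and 31.99 and 36.2 (difference -2.64 ± 0.28 (SE), adjusted p 0.00166, and difference -2.39 ± 0.21 (SE), adjusted p 0.000944). PAX5 was at 1.83 and 0.446 FPKM in KM-H2 and 0.537 and 0.62 in L428, against 33.8 and 19.8 in L1236, and POU2AF1, a coactivator of octamer factors in B cells, at 0 and 0 and 0 and 0.026, against 20.3 and 19.4 in L1236. Neither was called, since KM-H2 overlapped L428. In the list of germinal centre and plasma cell genes 0 of 12 tested were called higher (limma and no overlap; 0 higher at unadjusted p < 0.05) and 4 were lower, with a median of -1.11. MZB1, a chaperone of antibody-secreting cells, was at 0 and 2.3 FPKM in KM-H2 against 11.1 and 5.03 and 40.2 and 65.2, and the germinal centre gene GCSAM at 1.34 and 1.65 against 6.74 and 7.07 and 24 and 55.1 (difference -3.54 ± 0.56 (SE), adjusted p 0.00667, and difference -2.79 ± 0.35 (SE), adjusted p 0.00302). Without KM-H2_0, PAX5 was called, with a difference of -2.17 and an adjusted p of 0.0371. Without L428_0, POU2AF1 was called, with a difference of -2.21 and an adjusted p of 0.00622. Without KM-H2_0, MZB1 had a difference of -2.68 and an adjusted p of 0.0519 and was not called. Treated as a single group of 4, L428 and L1236 left LEF1, MZB1 and GCSAM uncalled (adjusted p 0.0881 to 0.266).

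Some genes of T cells and of myeloid cells were read in KM-H2, and others were not. Of 9 tested T-cell and NK-cell genes 4 were higher and 2 lower (median 1.18), and of 11 myeloid genes 3 were called higher and 0 lower (limma and no overlap; 2 lower at unadjusted p < 0.05; median 0.68). The filter shaped these counts: 3 of the 4 higher T-cell genes and 2 of the 3 higher myeloid genes were tested only through KM-H2, and 15 of 24 T-cell and NK-cell and 19 of 30 myeloid genes in the table were not tested. Over all tested genes 11.1% were higher and 9.22% lower. FCGR2A, a myeloid Fc receptor, passed limma and the size limit as lower but its libraries overlapped, at 0.234 and 0.998 FPKM in KM-H2, 0.194 and 0.132 in L428 and 16.4 and 23.9 in L1236 (difference -1.65 ± 0.28 (SE), adjusted p 0.0087). CD4 was at 54.5 and 45.96 FPKM in KM-H2, 0 and 0.0281 in L428 and 2.19 and 2.58 in L1236 (difference 4.79 ± 0.20 (SE), adjusted p 0.00027). CD3D, a subunit of the T-cell receptor complex, was at 13.5 and 22.4 FPKM and CD3G at 3.25 and 2.85, each listed at 0 in L428 and L1236 (difference 4.21 ± 0.24 (SE), adjusted p 0.000373, and difference 2.02 ± 0.15 (SE), adjusted p 0.000624), and the T-cell receptor kinase ZAP70 at 6.79 and 8.67 against at most 0.114. The lower members were the factors GATA3, at 9.58 and 3.54 FPKM against 25.2 and 28.4 and 25.7 and 10.3, and TBX21, at 0 and 0.0722 against 0.912 and 1.3 and 1.65 and 1.51 (difference -1.66 ± 0.48 (SE), adjusted p 0.0454, and difference -1.17 ± 0.17 (SE), adjusted p 0.00472). Other T-cell genes were at or near 0 in KM-H2. CD3E, another subunit of the T-cell receptor complex, was at 0.197 and 0 FPKM, LCK was at 0 and 0.0895, and CD8A and CD28 were listed at 0. The T-cell marker set of 8 genes summed to 24.6 and 35.1 FPKM in KM-H2, led by CD3D, against 0.123 to 0.284 in the other cHL libraries. The myeloid marker set of 8 genes summed to 16.4 and 9.4 FPKM, led by ITGAM and CD14, against 0.201 to 5.8, and S100A8, S100A9 and MPO were listed at 0 in KM-H2. CD14 was at 5.79 and 4.56 FPKM and the integrin ITGAM at 9.14 and 4.24, against at most 0.122 and 0.693 (difference 2.54 ± 0.17 (SE), adjusted p 0.000521, and difference 2.50 ± 0.31 (SE), adjusted p 0.0029). In bulk RNA, fewer cells expressing a gene and less of its RNA in each cell cannot be told apart. GATA3 was also not called at a pseudocount of 0.1 (adjusted p 0.0528), without the filter (0.0797) and with the filter on the mean of 12 libraries (0.0719). GATA3 was not called without KM-H2_0, KM-H2_1, L428_0, L428_1, L1236_0 or L1236_1, with differences of -2.27, -1.05, -1.71, -1.62, -1.35 and -1.97 and adjusted p-values of 0.0729, 0.264, 0.0956, 0.117, 0.12 and 0.0565. GATA3 lost the call against L428 and L1236 as a single group of 4 (adjusted p 0.102).

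Markers of HRS cells differed from the other cHL cell lines in either direction. TNFRSF8, which encodes CD30, was at 28.3 and 20.1 FPKM in KM-H2, 63.7 and 38.7 in L428 and 30.6 and 19.1 in L1236, with overlap and no call. The HRS marker set of 10 genes summed to 495 and 465 FPKM in KM-H2, 2010 and 1430 in L428 and 882 and 863 in L1236. It was led by IRF4 and FSCN1 in KM-H2, CCL17 in L428 and BATF3 in L1236. In L428, CCL17 stood at 705 and 454 FPKM and FSCN1, an uncalled marker, at 687 and 354. Of 27 tested genes of the longer list 6 were higher and 7 lower, with a median difference of -0.52, against 11.1% higher and 9.22% lower of all tested genes. EBI3, a subunit of the cytokines IL-27 and IL-35, was at 312 and 235 FPKM in KM-H2, 23.7 and 13.4 in L428 and 17.5 and 14.6 in L1236 (difference 3.93 ± 0.29 (SE), adjusted p 0.000619). CD83, a marker of activated B cells and dendritic cells, was at 198 and 129 FPKM against 48.3 and 52.01 and 3.18 and 2.49 (difference 3.52 ± 0.24 (SE), adjusted p 0.000529). The costimulatory ligand CD86 and the AP-1 family member BATF3 were lower, CD86 at 9.47 and 8.02 FPKM against 30.1 and 41.6 and 84.2 and 101 and BATF3 at 72.03 and 31.9 against 189 and 215 and 324 and 395 (difference -2.58 ± 0.23 (SE), adjusted p 0.000954, and difference -2.46 ± 0.37 (SE), adjusted p 0.00538). The ligands CD80 and CD274 (PD-L1) and the growth regulator MYC were also lower, CD80 at 6.03 and 10.1 FPKM against 20.8 and 29.1 and 39.5 and 67.1, CD274 at 2.48 and 2.63 against 3.74 and 7.28 and 29.9 and 33.1 and MYC at 13.98 and 16.6 against 84.1 and 51.02 and 82.6 and 46.8 (differences -2.06, -2.0 and -2.0). CCL22, a chemokine that draws T cells, was listed at 0 in KM-H2, at 0.638 and 0.0541 FPKM in L428 and at 2.83 and 1.74 in L1236 (difference -1.04 ± 0.25 (SE), adjusted p 0.0257). CCL17, a chemokine of the same receptor, was at 12.6 and 62.7 FPKM in KM-H2, 705 and 454 in L428 and 37.7 and 19.8 in L1236, and IRF4 at 133 and 74.8, 159.8 and 123 and 194 and 189.9; neither was called. Without KM-H2_1, CCL17 was called, with a difference of -3.22 and an adjusted p of 0.0309. Without KM-H2_0, CD80 had a difference of -1.73 and an adjusted p of 0.068 and was not called. Without KM-H2_0, CD274 had a difference of -1.98 and an adjusted p of 0.0501 and was not called. MYC was not called without KM-H2_0 or KM-H2_1, with differences of -1.88 and -2.11 and adjusted p-values of 0.0794 and 0.0639. CCL22 was not called without KM-H2_0, KM-H2_1, L428_0 or L1236_0, with differences of -1.04, -1.04, -0.89 and -0.92 and adjusted p-values of 0.126, 0.129, 0.0461 and 0.069. Against the other 4 libraries as a single group, CD83, CD274 and CCL22 fell short of the call (adjusted p 0.149 to 0.275).

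Receptors of the TNF family were higher in KM-H2 in 8 of 19 tested members and lower in 2, with a median over the list of 0.01, against 11.1% higher and 9.22% lower of all tested genes. Of the 8, 4 were tested only through KM-H2, being under 1 FPKM in all 4 other libraries, and 8 of the 27 list genes in the table were not tested. TNFRSF4 (OX40), a costimulatory receptor, was at 38.1 and 45.3 FPKM in KM-H2, 0 and 0 in L428 and 0 and 0.046 in L1236 (difference 5.39 ± 0.19 (SE), adjusted p 0.000239). TNFRSF18 (GITR), another costimulatory receptor, was at 4.12 and 7.42 FPKM, and EDA2R, a receptor of ectodysplasin, at 5.85 and 7.35, each listed at 0 in the other cHL libraries (difference 2.72 ± 0.24 (SE), adjusted p 0.000958, and difference 2.92 ± 0.17 (SE), adjusted p 0.000378). TNFRSF25, a death receptor, was at 4.2 and 5.84 FPKM in KM-H2, 0.323 and 0 in L428 and 1 and 0.679 in L1236 (difference 2.04 ± 0.23 (SE), adjusted p 0.00203). TNFRSF9 (4-1BB) was at 23.4 and 22.6 FPKM against 2.64 and 3.62 in L428 and 7.24 and 9.67 in L1236 (difference 1.95 ± 0.23 (SE), adjusted p 0.00232). TNFRSF11A, which encodes RANK and is followed by the study, was lower in KM-H2, at 4.26 and 4.78 FPKM against 9.76 and 14.5 and 61.5 and 51.8 (difference -2.30 ± 0.23 (SE), adjusted p 0.00149). Treated as a single group of 4, L428 and L1236 left TNFRSF9 and TNFRSF11A uncalled (adjusted p 0.0517 to 0.12).

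The list of TNF ligands and interleukins had 6 higher and 2 lower genes of 25 tested, with a median of 0.09 (all tested genes: 11.1% and 9.22%). Of the 6, 2 were tested only through KM-H2, and 21 of the 46 list genes in the table were not tested. CD70, the ligand of CD27, was at 197 and 251 FPKM in KM-H2, 102 and 118 in L428 and 37.7 and 46.1 in L1236 (difference 1.70 ± 0.23 (SE), adjusted p 0.00386). IL15, a growth factor of NK and T cells, was at 10.9 and 14.9 FPKM against 3.31 and 7.58 and 1.78 and 2.29, and TNFSF13B (BAFF), a survival factor of B cells, at 4.91 and 3.63 against 0.876 and 1.22 and 0.271 and 0.525 (difference 1.68 ± 0.34 (SE), adjusted p 0.0146, and difference 1.63 ± 0.21 (SE), adjusted p 0.00314). LIF and IL21, a cytokine of the gp130 family and a B-cell growth factor, were read at low level in KM-H2 (1.39 and 3.03 and 1.19 and 1.24 FPKM) and listed at 0 in the other lines. The myeloid growth factors were lower, CSF2 (GM-CSF) at 0.432 and 4.08 FPKM in KM-H2 against 37.4 and 21.6 and 54.8 and 91.04, and CSF1 at 10.2 and 5.99 against 44.2 and 34.8 and 51.8 and 33.04 (difference -4.09 ± 0.56 (SE), adjusted p 0.00401, and difference -2.22 ± 0.30 (SE), adjusted p 0.00401). Among 22 tested cytokine receptors 2 were higher and 2 lower (9.09% each, median -0.31), near the share over all tested genes. IL5RA was at 0 and 1.07 FPKM in KM-H2 against 27.4 and 58.8 in L428 and 24.4 and 28.5 in L1236, and IL13RA1, a chain of the IL-13 receptor, at 18.5 and 10.6 against 80.2 and 68.8 and 121 and 156 (difference -4.55 ± 0.42 (SE), adjusted p 0.00119, and difference -2.76 ± 0.28 (SE), adjusted p 0.00153). IFNGR2, a chain of the interferon gamma receptor, was higher at 66.98 and 84.99 FPKM against 13.2 and 10.3 and 42.8 and 55.4 (difference 1.61 ± 0.23 (SE), adjusted p 0.00475). IL15 was not called without KM-H2_0, KM-H2_1, L1236_0 or L1236_1, with differences of 1.89, 1.47, 1.62 and 1.74 and adjusted p-values of 0.0752, 0.12, 0.0707 and 0.0635. CD70, IL15 and IFNGR2 lost the call against L428 and L1236 as a single group of 4 (adjusted p 0.0876 to 0.22).

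Of 11 tested chemokine genes 2 were higher and 2 lower (median -1.04), and of 11 chemokine and migration receptors 2 were higher and 3 lower (median -0.76). Over all tested genes 11.1% were higher and 9.22% lower. In each list 1 of the 2 higher genes was tested only through KM-H2, and 22 of 33 and 14 of 25 list genes in the table were not tested. The 2 lower chemokine genes were under 1 FPKM in both KM-H2 libraries. CXCL11, a ligand of CXCR3, was higher at 17.4 and 8.77 FPKM against 0.102 and 0.366 and 4.28 and 8.53 (difference 2.18 ± 0.38 (SE), adjusted p 0.00868). CCL20, the ligand of CCR6, was at 3.57 and 3 FPKM in KM-H2, 0.87 and 0.448 in L428 and 0 and 0 in L1236, and CXCL16 was lower at 0.245 and 0.134 against 1.13 and 1.22 and 5.22 and 5.17. CCR7, which guides cells to lymph nodes, was at 29.6 and 22.8 FPKM in KM-H2 against 128 and 132 and 257 and 303 (difference -2.83 ± 0.22 (SE), adjusted p 0.000717). CCR4, the receptor of CCL17, was at 10.2 and 5.21 FPKM against 165 and 155 and 16.6 and 26.5 (difference -2.84 ± 0.32 (SE), adjusted p 0.00213). S1PR1, which guides cells out of lymphoid tissue, was higher at 24.6 and 9.6 FPKM against 3.15 and 5.09 and 2.64 and 3.06 (difference 1.91 ± 0.40 (SE), adjusted p 0.0171). CXCR5, which guides B cells into follicles, was higher too, at 2.71 and 2.67 FPKM against at most 0.366. Without KM-H2_0, CXCL11 had a difference of 1.73 and an adjusted p of 0.0703 and was not called. S1PR1 was not called without KM-H2_0, L428_0, L1236_0 or L1236_1, with differences of 1.27, 1.77, 1.87 and 1.95 and adjusted p-values of 0.071, 0.0512, 0.0787 and 0.0743. Against the other 4 libraries as a single group, CXCL11, CXCL16 and CCR4 fell short of the call (adjusted p 0.129 to 0.209).

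Of 6 tested WNT ligands 3 were higher and 1 lower, with a median of 0.58, against 11.1% higher and 9.22% lower of all tested genes, and 13 of the 19 in the table were not tested. WNT5A, a ligand of non-canonical WNT signalling that the study follows, was at 49.8 and 45.1 FPKM in KM-H2, 2.8 and 3.19 in L428 and 0.661 and 1.51 in L1236 (difference 4.08 ± 0.25 (SE), adjusted p 0.000391). WNT10A was at 47.3 and 34.1 FPKM against 1.26 and 0.81 and 0.826 and 0.873, and WNT10B at 5.9 and 6.3 against 1.99 and 1.19 and 0.903 and 0.835 (difference 4.41 ± 0.24 (SE), adjusted p 0.000333, and difference 1.70 ± 0.21 (SE), adjusted p 0.00294). WNT5B, the close relative of WNT5A, was listed at 0 in KM-H2, at 0.145 and 0.0369 in L428 and at 25.8 and 24.6 FPKM in L1236 (difference -2.42 ± 0.18 (SE), adjusted p 0.000619). The 3 higher ligands were read in all 6 libraries, and lack of overlap was part of the call rule. Among 30 tested receptors and effectors 4 were higher (13.3%) and 5 lower (16.7%), with a median of 0.13. Of the 4, 2 were tested only through KM-H2, and 16 of the 46 list genes in the table were not tested. Of the 5 lower, 2 were under 1 FPKM in both KM-H2 libraries. PTK7, a planar polarity co-receptor, was at 20.2 and 27.7 FPKM against at most 0.446, and WLS, which carries WNT proteins to the cell surface, at 10.5 and 11.7 against 0 in L428 and L1236 (difference 4.33 ± 0.21 (SE), adjusted p 0.000318, and difference 3.59 ± 0.17 (SE), adjusted p 0.000293). The receptor FZD6 was lower, at 0 and 1.39 FPKM against 22.3 and 43.6 and 20.4 and 23.9 (difference -4.14 ± 0.44 (SE), adjusted p 0.00177). Treated as a single group of 4, L428 and L1236 left WNT5B uncalled (adjusted p 0.392).

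Of 21 tested receptor tyrosine kinases 7 were higher and 6 lower, with a median of 0.61, against 11.1% higher and 9.22% lower of all tested genes. Of these, 5 of the higher genes were tested only through KM-H2 and 5 of the lower ones were under 1 FPKM in KM-H2, and 23 of the 44 list genes in the table were not tested. PDGFRA was at 15.2 and 11.7 FPKM in KM-H2 and FGFR2 at 7.39 and 4.96, against at most 0.058 and 0.0204 in the other cHL libraries (difference 3.80 ± 0.19 (SE), adjusted p 0.000329, and difference 2.81 ± 0.20 (SE), adjusted p 0.000547). EPHB6, an ephrin receptor without kinase activity, was at 8.75 and 6.71 FPKM against 0.504 and 0.395 and 0 and 0.0285 (difference 2.84 ± 0.19 (SE), adjusted p 0.000487). EPHB1 was lower, at 0.0587 and 0.388 FPKM against 16.4 and 9.72 and 25.1 and 11.2 (difference -3.69 ± 0.39 (SE), adjusted p 0.00178). HGF, the ligand of MET, was at 84.4 and 118 FPKM in KM-H2, 0 and 0.0668 in L428 and 2.99 and 0 in L1236 (difference 6.13 ± 0.55 (SE), adjusted p 0.00107). MET itself was at 18.2 and 11.4 FPKM in KM-H2, 61.2 and 67.6 in L428 and 11.6 and 15.7 in L1236 and was not called. In the NOTCH pathway 4 of 17 were higher (23.5%) and 5 lower (29.4%), with a median of 0.32. Of the 5 lower, 4 were under 1 FPKM in both KM-H2 libraries, and 4 of the 21 list genes in the table were not tested. MFNG, a glycosyltransferase that modifies NOTCH, was at 40.8 and 42.5 FPKM against 0.0783 and 0.152 and 15.4 and 14.8, and the ligand DLL1 was listed at 0 in KM-H2 against 1.86 and 0.829 and 5.48 and 4.75 (difference 3.33 ± 0.19 (SE), adjusted p 0.000373, and difference -1.90 ± 0.24 (SE), adjusted p 0.00287). HES4, a repressor of the HES family, was lower at 0 and 0.427 FPKM against 7.85 and 2.96 and 7.5 and 7.84 (difference -2.58 ± 0.37 (SE), adjusted p 0.00464). Without KM-H2_0, MET was called, with a difference of -1.31 and an adjusted p of 0.0447. Without KM-H2_0, HES4 had a difference of -2.33 and an adjusted p of 0.0629 and was not called. MFNG and DLL1 lost the call against L428 and L1236 as a single group of 4 (adjusted p 0.0855 to 0.177).

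Genes stimulated by interferon were lower in KM-H2 in 14 of 40 tested and higher in 2, with a median difference of -1.08, against 11.1% higher and 9.22% lower of all tested genes. MX1, an antiviral GTPase, was at 0 and 0.432 FPKM in KM-H2, 3.31 and 5.59 in L428 and 58.6 and 128 in L1236 (difference -4.18 ± 0.40 (SE), adjusted p 0.00124). PARP9 was at 1.39 and 1.42 FPKM against 9.68 and 14.7 and 22.4 and 35.05, and its partner and neighbour DTX3L at 2.5 and 1.34 against 7.03 and 11.2 and 23.6 and 29.9 (difference -3.01 ± 0.28 (SE), adjusted p 0.0012, and difference -2.53 ± 0.29 (SE), adjusted p 0.00236). The guanylate-binding proteins GBP5 and GBP4 were lower, GBP5 at 1.5 and 4.41 FPKM against 35.7 and 78.6 and 15 and 25.99 and GBP4 at 1.15 and 1.49 against 11.1 and 12.02 and 10.3 and 11.7 (difference -3.19 ± 0.48 (SE), adjusted p 0.00535, and difference -2.40 ± 0.20 (SE), adjusted p 0.000869). IFITM3, which blocks viral entry, went the other way at 33.2 and 33.2 FPKM against 0.584 and 0 and 3.67 and 5.47, as did TRIM22, an antiviral ubiquitin ligase, at 20.1 and 19.2 against 0.351 and 0.588 and 3.68 and 14.2 (difference 3.70 ± 0.28 (SE), adjusted p 0.000652, and difference 2.55 ± 0.47 (SE), adjusted p 0.0112). Without KM-H2_0, GBP5 had a difference of -2.63 and an adjusted p of 0.0629 and was not called. TRIM22 was not called without KM-H2_0 or KM-H2_1, with differences of 2.52 and 2.58 and adjusted p-values of 0.103 and 0.1. Against the other 4 libraries as a single group, MX1 and TRIM22 fell short of the call (adjusted p 0.126 to 0.164).

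The JAK-STAT list had 2 higher (9.52%) and 8 lower members (38.1%) of 21 tested, with a median of -0.60, against 11.1% higher and 9.22% lower of all tested genes. JAK2 was at 5.84 and 4.99 FPKM in KM-H2, 18.1 and 28.4 in L428 and 52.4 and 53.1 in L1236, and STAT6, which acts downstream of IL-4 and IL-13, at 39.1 and 25.9 against 68.1 and 54.7 and 182 and 206 (difference -2.48 ± 0.24 (SE), adjusted p 0.00133, and difference -1.74 ± 0.25 (SE), adjusted p 0.00487). CISH, a feedback inhibitor induced by STAT5, had the largest negative difference of the list, at 0.409 and 1.25 FPKM against 26.6 and 11.2 and 16.6 and 4.1 (difference -2.89 ± 0.60 (SE), adjusted p 0.0163). The feedback inhibitor SOCS3 was lower, at 0.928 and 3.11 FPKM against 14.7 and 9.48 and 37.3 and 25.3, and its relative SOCS2 higher, at 38.6 and 43.05 against 3.46 and 5.71 and 7.09 and 9.13 (difference -2.84 ± 0.39 (SE), adjusted p 0.00399, and difference 2.57 ± 0.25 (SE), adjusted p 0.00136). The phosphatase PTPN6 (SHP-1) was at 0 and 0.234 FPKM against 8.63 and 6.76 and 0.915 and 0.79 (difference -1.85 ± 0.20 (SE), adjusted p 0.00194). PTPN1, a phosphatase of JAK kinases, was at 17.2 and 21.9 FPKM against 67.2 and 89.9 and 36.98 and 37.7. Among 23 genes of NF-κB subunits and regulators 2 were higher (8.7%) and 4 lower (17.4%), with a median of 0.01. The inhibitor TNFAIP3 (A20) was at 5.07 and 16.6 FPKM in KM-H2, 246 and 355 in L428 and 19.9 and 30.9 in L1236, and the deubiquitinase CYLD at 1.32 and 3.14 against 14.5 and 26.6 and 17.7 and 19.9 (difference -3.08 ± 0.47 (SE), adjusted p 0.0058, and difference -2.70 ± 0.35 (SE), adjusted p 0.00336). NFKBIZ, a nuclear member of the inhibitor family, was higher at 6.74 and 5.95 FPKM against 1.77 and 5.05 and 0.837 and 0.89 (difference 1.41 ± 0.34 (SE), adjusted p 0.027). Without the filter NFKBIZ was not called (adjusted p 0.0563). CISH was not called without KM-H2_0 or KM-H2_1, with differences of -2.55 and -3.22 and adjusted p-values of 0.145 and 0.0983. NFKBIZ was not called without KM-H2_0, KM-H2_1, L1236_0 or L1236_1, with differences of 1.33, 1.49, 1.40 and 1.42 and adjusted p-values of 0.154, 0.131, 0.0993 and 0.1. Treated as a single group of 4, L428 and L1236 left STAT6, PTPN6, PTPN1, TNFAIP3 and NFKBIZ uncalled (adjusted p 0.0884 to 0.207).

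Adhesion molecules and integrins had 8 higher and 3 lower genes of 32 tested, with a median of -0.04, against 11.1% higher and 9.22% lower of all tested genes. Of the 8, 4 were tested only through KM-H2. CD48, a ligand of CD2 and CD244, was at 51.2 and 179 FPKM in KM-H2, 0.108 and 0.0782 in L428 and 2.44 and 3.44 in L1236 (difference 5.55 ± 0.50 (SE), adjusted p 0.00106). ITGB2, the beta chain shared by leukocyte integrins, was at 22.6 and 30.5 FPKM against at most 0.121, and ITGA5, the alpha chain of the fibronectin receptor, at 17.9 and 19.3 against at most 0.219 (difference 4.64 ± 0.21 (SE), adjusted p 0.000278, and difference 4.22 ± 0.19 (SE), adjusted p 0.000278). ITGA4, the alpha chain of VLA-4, was lower at 4.57 and 4.53 FPKM against 21.1 and 24.8 and 72.1 and 92.2, and so was CD58, another ligand of CD2, at 16.8 and 16.8 against 60.8 and 86.97 and 88.8 and 129 (difference -3.0 ± 0.20 (SE), adjusted p 0.000513, and difference -2.33 ± 0.26 (SE), adjusted p 0.00202). PECAM1 (CD31) was lower at 0.0617 and 0.0407 FPKM against 0.341 and 0.937 and 32.02 and 17.5 (difference -2.59 ± 0.31 (SE), adjusted p 0.00255). The fibronectin-binding chains ITGA5 and ITGA4 thus differed in opposite directions. PECAM1 lost the call against L428 and L1236 as a single group of 4 (adjusted p 0.301).

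Regulators of the cell cycle and of cell death were called in either direction. Of 18 tested cyclins, CDKs and their inhibitors 1 was higher and 3 lower (median -0.44), and of 23 genes of the BCL2 family and death receptors 2 were higher and 5 lower (median -0.46), against 11.1% higher and 9.22% lower of all tested genes. Of the 2 higher genes of the second list 1, HRK, was tested only through KM-H2. Under 1 FPKM in both KM-H2 libraries were 1 of the 3 lower genes of the first list and 2 of the 5 of the second. CDKN2A, which encodes p16 and ARF, was at 0 and 1.04 FPKM in KM-H2, 36.2 and 34.9 in L428 and 79.7 and 88.5 in L1236 (difference -5.29 ± 0.32 (SE), adjusted p 0.000385). CDKN1A, which encodes p21, was higher at 40.5 and 49.8 FPKM against 2.2 and 2.28 and 11.8 and 18.7, and E2F2 lower at 0.0526 and 0.278 against 14.2 and 18.2 and 8.96 and 6.44 (difference 2.68 ± 0.25 (SE), adjusted p 0.0012, and difference -3.39 ± 0.24 (SE), adjusted p 0.000578). HRK, a pro-apoptotic member, was higher at 4.05 and 4.39 FPKM against 0.11 and 0.0561 and 0 and 0.0653 (difference 2.30 ± 0.16 (SE), adjusted p 0.000513). BCL2A1, an anti-apoptotic member, was also higher at 102 and 179 FPKM against 44 and 38.4 and 16.4 and 26.8 (difference 2.16 ± 0.32 (SE), adjusted p 0.00539). CFLAR, an inhibitor of caspase-8 activation, was at 25.8 and 20.7 FPKM against 95.5 and 159 and 161 and 224, and BCL2L1 at 16.6 and 19.4 against 55.4 and 86.7 and 86.7 and 103 (difference -2.67 ± 0.30 (SE), adjusted p 0.00208, and difference -2.11 ± 0.25 (SE), adjusted p 0.00259). Against the other 4 libraries as a single group, CDKN1A fell short of the call (adjusted p 0.0969).

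**Figure D4:**
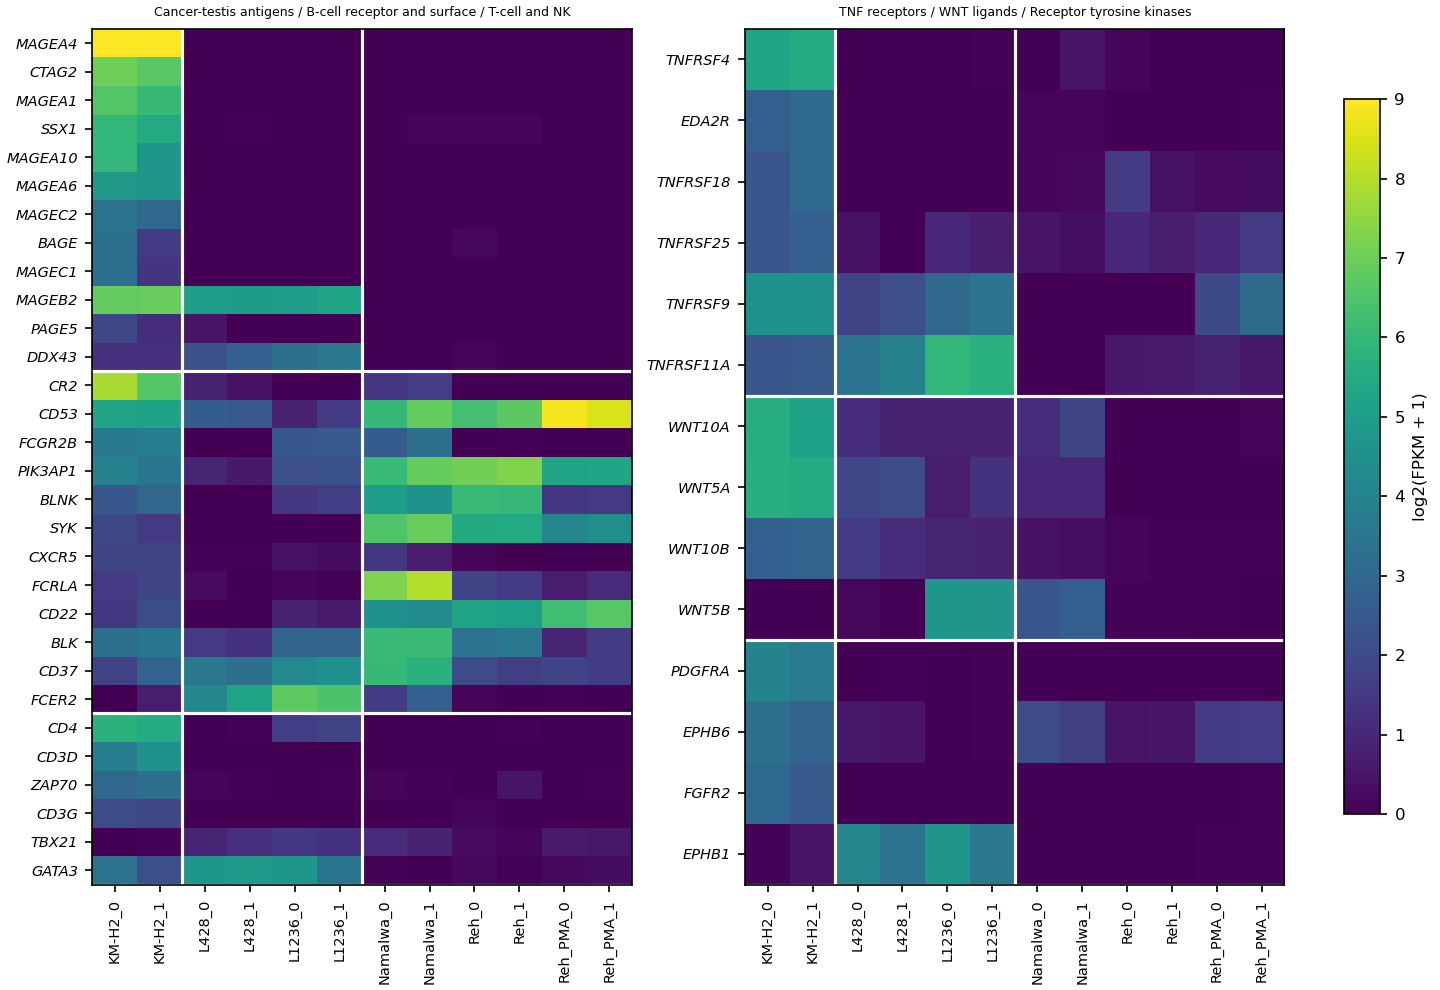
Level of called members of 6 lists that the text names, as log2(FPKM + 1) in colour, with genes as lines and the 12 libraries as columns, KM-H2 at the far left. White lines separate the lists, KM-H2 from the other cHL cell lines, and these from the B-cell lines, and MAGEA4 and CTAG2 were at 0 in every library other than those of KM-H2.

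The largest negative differences of named genes were those of replication-dependent histone genes. HIST1H3C was at 0 and 18.1 FPKM in KM-H2, 736 and 1723 in L428 and 566 and 538 in L1236 (difference -7.50 ± 1.14 (SE), adjusted p 0.00561). HIST1H2BB was at 0 and 2.4 FPKM against 104 and 79.9 and 294 and 300.2 (difference -6.49 ± 0.49 (SE), adjusted p 0.000645), and HIST1H3F, HIST1H2BH, HIST1H4D and HIST1H3J were between 0 and 26.3 FPKM in KM-H2 and at 251 FPKM or more in the L428 and L1236 libraries. Of 64 tested histone genes 0 were called higher and 10 lower, against 11.1% higher and 9.22% lower of all tested genes, and the median was -0.23; by limma and size alone, with overlap allowed, 4 were higher and 11 lower, and 5 and 12 at unadjusted p < 0.05. At a limit of 50 FPKM, chosen after the data were seen, 6 histone genes were below it in KM-H2 alone, 3 in L428 alone and 0 in L1236 alone. HIST1H1D was at 0 and 0 FPKM in KM-H2 and 0.24 and 0.248 in L428 but 534 and 898 in L1236 (difference -4.88 ± 0.27 (SE), adjusted p 0.000342), and HIST1H1B was low in L428, at 0 and 2.06 against 1113 and 391.5 in KM-H2. Summed over the class, histone genes had 38800 and 19400 FPKM in KM-H2, 34400 and 50100 in L428 and 23300 and 23000 in L1236. These genes are near-identical copies, so the division of reads among them is uncertain. Without KM-H2_1, HIST1H1B was called, with a difference of 4.82 and an adjusted p of 0.0282. HIST1H3F was not called without L1236_0 or L1236_1, with differences of -7.33 and -7.24 and adjusted p-values of 0.0501 and 0.0527. Treated as a single group of 4, L428 and L1236 left HIST1H1D uncalled (adjusted p 0.382).

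Other genes among the 20 most reduced were at 15 FPKM or less in KM-H2. TXNIP, an inhibitor of glucose uptake and of thioredoxin, was at 0 and 3.75 FPKM in KM-H2, 62.8 and 365 in L428 and 75.2 and 226 in L1236 (difference -6.02 ± 0.96 (SE), adjusted p 0.00662). ALOX15, a lipoxygenase gene induced by IL-4 and IL-13, was listed at 0 in KM-H2, at 3.43 and 4.08 in L428 and at 393 and 198 FPKM in L1236 (difference -5.19 ± 0.31 (SE), adjusted p 0.000391). TSC22D3, a glucocorticoid-induced leucine zipper gene, was at 2.52 and 4.55 FPKM against 45.97 and 86.2 and 242 and 279.6 (difference -4.87 ± 0.34 (SE), adjusted p 0.000527). All 4 libraries of L428 and L1236 were above both of KM-H2 at these genes, as the call rule required. SPINT2, a protease inhibitor, was at 0.363 and 10.3 FPKM against 189.6 and 218 and 72.8 and 85.04, and PERP, a p53 target of cell junctions, at 0.192 and 5.78 against 126 and 156 and 30.9 and 38.1. NDST4 (0 and 0.658 FPKM in KM-H2), HDGFRP3 (0.351 and 1.99), ARL14EPL (0 and 3.49), MAL (0 and 1.76) and CRIP1 (0.869 and 15) had differences of -5.35, -5.16, -4.90, -4.77 and -4.65. Without KM-H2_0, TXNIP had a difference of -4.90 and an adjusted p of 0.0805 and was not called. CRIP1 was not called without L1236_0 or L1236_1, with differences of -4.58 and -4.72 and adjusted p-values of 0.0543 and 0.0518. ALOX15 lost the call against L428 and L1236 as a single group of 4 (adjusted p 0.169).

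Low traces of such genes were counted in each KM-H2 library. Among the lower genes 283 were under 0.05 FPKM in KM-H2_0, of which 178 were at 0.05 or more in KM-H2_1, and 132 were under it in KM-H2_1, of which 27 were at 0.05 or more in KM-H2_0. Over all 283 the KM-H2_1 level had a median of 2.17% of the mean level of L428_1 and L1236_1. KM-H2_1 was above KM-H2_0 in 718 of 1240 lower genes (57.9%), small RNA genes left out, against 49.2% of all tested genes. Among the higher genes, 54 of 377 under 0.05 FPKM in L428_0 were at 0.05 or more in L428_1, and 61 of 404 under it in L1236_0 were in L1236_1. The limit of 0.05 FPKM was chosen after the data were seen, and the source of the traces was not tested. IL5RA at 0 and 1.07 FPKM, CDKN2A at 0 and 1.04 and FZD6 at 0 and 1.39 in KM-H2 are examples.

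CSF1R, NFIX and CBFA2T3, which the study follows, were not called. CSF1R, the receptor of colony-stimulating factor, was at 1.13 and 2.05 FPKM in KM-H2, 1.1 and 0.665 in L428 and 0.463 and 0.246 in L1236, and its difference of 0.68 ± 0.23 (SE) had an adjusted p of 0.0691, so that it failed the test and the size limit although its libraries did not overlap. Without KM-H2_1 the difference was 0.42. NFIX, a nuclear factor I gene, was at 1.43 and 0.748 FPKM in KM-H2, 0.379 and 0.166 in L428 and 16.1 and 8.51 in L1236 and was not called, and of the 4 nuclear factor I genes tested 0 were called in either direction (limma and no overlap; 0 higher and 1 lower at unadjusted p < 0.05), against 11.1% higher and 9.22% lower of all tested genes. CBFA2T3, a corepressor of the ETO family, was below the limit for testing, at 0.315 and 0.457 FPKM in KM-H2 and 0 in L428 and L1236, with no overlap.

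The remaining lists had at most 4 genes called in a direction, against 11.1% higher and 9.22% lower of all tested genes. MHC class II genes had 1 higher and 1 lower of 17 and MHC class I presentation 0 higher (limma and no overlap; 2 at unadjusted p < 0.05) and 1 lower of 20, the repressors of retroviral repeats with ETO factors 1 and 1 of 24, and cholesterol synthesis 1 and 1 of 22. HLA-DRB5 was the higher MHC class II gene, at 29.8 and 3.41 FPKM against 0 and 0.15 and 0 and 0.0863, and HLA-DQA1 the lower, at 14.1 and 4.76 against 23.7 and 50.4 and 68.1 and 84.8 (difference 3.46 ± 0.73 (SE), adjusted p 0.0171, and difference -2.49 ± 0.48 (SE), adjusted p 0.0128); these genes vary between people, so reads may be misplaced. TAPBPL, a peptide editor of class I, was at 7.55 and 5.96 FPKM against 18.2 and 17.01 and 12.6 and 18.1 (difference -1.16 ± 0.23 (SE), adjusted p 0.0145). DNMT3A, a DNA methyltransferase, was the higher repressor, at 8.93 and 6.72 FPKM against 0.844 and 1.25 in L428 and 2.98 and 3.3 in L1236 (difference 1.59 ± 0.22 (SE), adjusted p 0.00419). HDAC1, a histone deacetylase, was the lower repressor, at 40.1 and 25.1 FPKM against 61.03 and 41.5 and 117 and 133, and in cholesterol synthesis IDI1 was higher, at 117 and 129.5 against 64.2 and 30.5 and 59.7 and 66.5, and CYP51A1 lower, at 22.1 and 24.9 against 82.5 and 27.6 and 101 and 91.9. AP-1 factors had 1 higher and 2 lower of 13, the HOX cluster with its cofactors 4 and 3 of 25, and the list of fibroblast, epithelial and erythroid genes 0 and 0 of 3 tested (limma and no overlap; 1 and 1 at unadjusted p < 0.05). FOSL1, the higher AP-1 factor, was at 2.48 and 4.57 FPKM against 0.591 and 0.242 and 1.2 and 0.165 (difference 1.55 ± 0.34 (SE), adjusted p 0.0196). HOXB7 was lower, at 0.222 and 0.859 FPKM against 17.1 and 38.1 and 11.8 and 12.7 (difference -3.64 ± 0.37 (SE), adjusted p 0.00155). The median differences of these 7 lists, in this order, were 0.28, 0.14, -0.16, 0.34, -0.33, -0.64 and -0.56. HLA-DRB5 was tested only through KM-H2, being under 1 FPKM in all 4 other libraries. The 3 lower HOX genes were all under 1 FPKM in both KM-H2 libraries. Of the list genes in the table, 17 of 42 HOX genes and 13 of 16 fibroblast, epithelial and erythroid genes were not tested. HDAC1 was not called after quantile normalization, where libraries overlapped. IDI1 was not called without the filter or with the filter on the mean of 12 libraries (adjusted p 0.0597 and 0.053), and CYP51A1 was not called with either (0.0788 and 0.0704), at a pseudocount of 0.1 (0.0516) or after median scaling (0.0574). HLA-DRB5 was not called without L428_0, L428_1, L1236_0 or L1236_1, with differences of 3.41, 3.51, 3.43 and 3.49 and adjusted p-values of 0.0533, 0.0545, 0.0796 and 0.0785. HLA-DQA1 was not called without KM-H2_1, L1236_0 or L1236_1, with differences of -1.79, -2.57 and -2.41 and adjusted p-values of 0.0906, 0.0585 and 0.0684. TAPBPL was not called without KM-H2_0, KM-H2_1 or L1236_1, with differences of -1.31, -1.02 and -1.04 and adjusted p-values of 0.0552, 0.0888 and 0.0556. HDAC1 was not called without KM-H2_1, L1236_0 or L1236_1, with differences of -0.97, -1.34 and -1.25 and adjusted p-values of 0.108, 0.0699 and 0.0817. IDI1 was not called without KM-H2_0, KM-H2_1, L428_1, L1236_0 or L1236_1, with differences of 1.28, 1.13, 0.94, 1.17 and 1.24 and adjusted p-values of 0.152, 0.189, 0.0376, 0.126 and 0.115. CYP51A1 was not called without KM-H2_0, KM-H2_1, L1236_0 or L1236_1, with differences of -1.41, -1.58, -1.46 and -1.53 and adjusted p-values of 0.228, 0.194, 0.146 and 0.139. FOSL1 was not called without KM-H2_0, KM-H2_1, L428_1 or L1236_1, with differences of 1.89, 1.22, 1.47 and 1.32 and adjusted p-values of 0.063, 0.139, 0.0641 and 0.0541. Without KM-H2_0 the difference of HLA-DRB5 was 2.06. Against the other 4 libraries as a single group, HDAC1, IDI1, CYP51A1 and DNMT3A fell short of the call (adjusted p 0.0711 to 0.184).

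**Figure D5:**
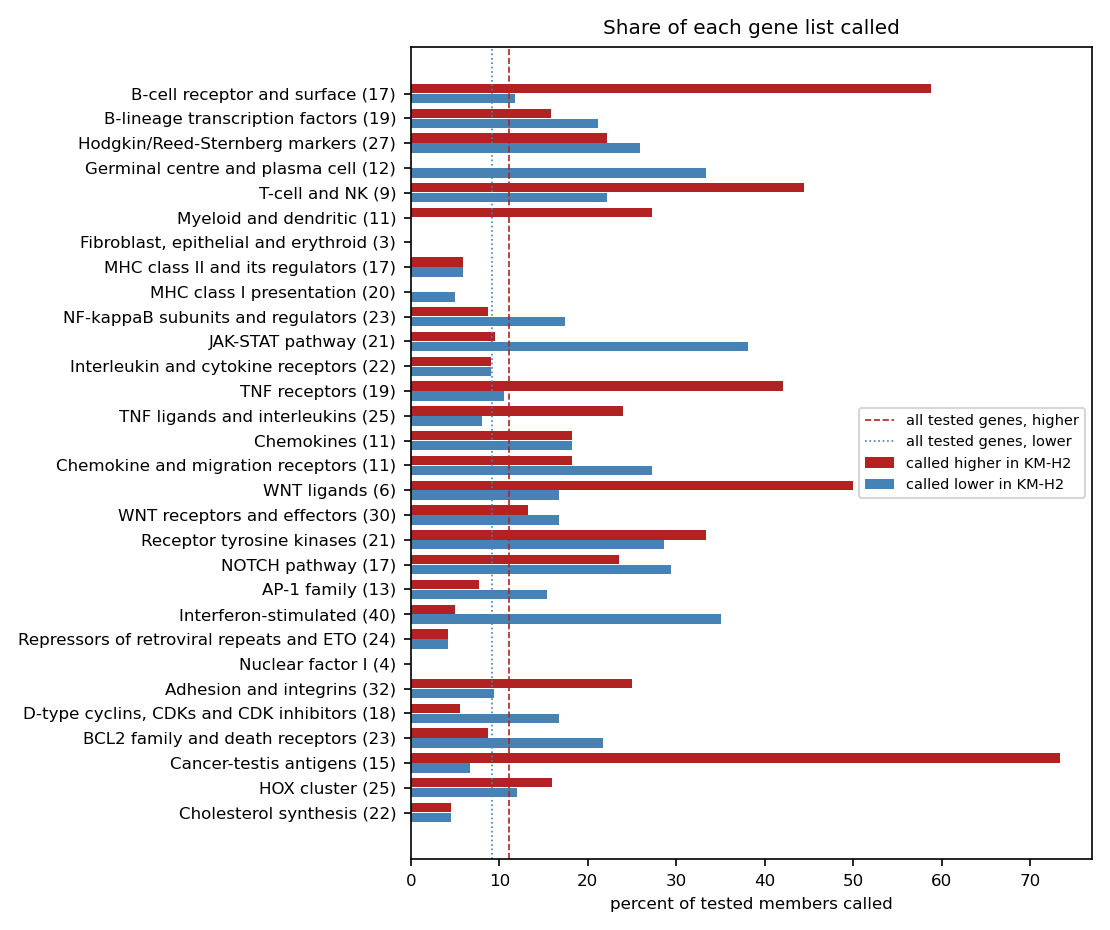
Percent of the tested members of each gene list called higher (red) or lower (blue) in KM-H2, with the number tested in parentheses. The red and blue lines mark 11.1% and 9.22%, the shares over all tested genes, and the cancer-testis list stood at 73.3% higher and 6.67% lower.

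The share of genes called differed between chromosomes, and whether it differed beyond chance was not tested. Positions in GRCh37 were found for 12176 of the tested genes (90.4%). The share called higher was 18.9% on chromosome X, 17.5% on chromosome 10 and 16.2% on chromosome 12, and 4.81% on chromosome 17, against 11.1% of all tested genes. The share called lower was 15.8% on chromosome 8, 14.7% on chromosome 6 and 13.7% on chromosome 3, against 9.22% of all tested genes. Neighbouring tested genes called in the same direction formed 33 runs of at least 4 higher genes and 14 of at least 4 lower genes. How many such runs would arise if calls did not depend on position was not worked out, so these counts are a description. After the globin stretch the longest was of 9 higher genes on chromosome 7, from LMBR1 to ESYT2, and the longest lower run was of 7 genes on chromosome 4, from CENPU to UFSP2. MAGEA4, MAGEA10 and MAGEA6 lay in a run of 5 on chromosome X, and ADORA2A and UPB1 in a run of 6 on chromosome 22. Copy number was not measured, and its part in these runs was not tested.

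The B-cell lines, whose values the rule did not use, were set beside the called genes as a description. Of the 1495 higher genes, 1100 (73.6%) were also higher in both KM-H2 libraries than in all 4 untreated Namalwa and Reh libraries, against 27.6% of all tested genes. Above all 10 other libraries of the series were 1002 (67.0%, against 22.3%). Of the 1242 lower genes, 585 (47.1%) were below all 4 libraries of untreated B-cell lines, against 21.2% of tested genes, and 493 (39.7%, against 15.0%) below all 10. In 549 lower genes (44.2%, against 16.0% of those tested) the untreated B-cell lines too lay below L428 and L1236, as CSF2, IL5RA and BATF3 did. The B-cell lines lay above L428 and L1236 in 49 lower genes (3.95%, against 11.8%) and below them in 125 higher genes (8.36%, against 16.0%). In 340 higher genes (22.7%, against 11.8%) the B-cell lines too lay above L428 and L1236. SYK was among these, at 91.1 and 120.2 FPKM in Namalwa and 43.1 and 44.8 in Reh, as was BLNK at 31.7 and 23.6 and 67.4 and 62.96. These shares are not independent of the rule, which had chosen genes for high or low KM-H2 values and had used the L428 and L1236 values, 4 of the 10 other libraries, so the shares over all tested genes are no test of them.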

How the data were processed

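Total RNA libraries (TruSeq Stranded Total RNA with Ribo-Zero) had been sequenced on Illumina instruments of more than 1 model, and which library ran on which was not given. The authors aligned reads to hg19 with TopHat2 2.0.11 and deposited FPKM values per gene from Cuffnorm 2.2.1; read counts were not used here, so depth is known only as relative values inferred from the spacing of low FPKM values. Relative to KM-H2_0 these were 1.52 in KM-H2_1, 1.81 and 3.56 in L428 and 1.6 and 6.02 in L1236, and levels below 1 FPKM are least precise in KM-H2_0. Genes at 1 FPKM or more in at least 2 of the 6 cHL libraries were tested as log2(FPKM + 1) in limma 3.58.1 (R 4.3.3; moderated test with a mean-variance trend, 1 coefficient per line, Benjamini-Hochberg adjustment over 13468 genes), for KM-H2 against the mean of L428 and L1236. With 3 residual degrees of freedom the prior added 2.86. Called genes had an adjusted p under 0.05, a size of at least 1 and no overlap; 2430 genes without overlap were not called, and 5715 genes had an unadjusted p under 0.05. An exact permutation test of 2 against 4 libraries cannot give a two-sided p below 0.0667, so none was used. The other steps ran in Python 3.11.15 with numpy 2.4.6, pandas 2.3.3 and matplotlib 3.10.9. The script was tested on simulated data.

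The members and gene lists were chosen with earlier results of these data known. Named genes were the 20 called genes with the largest difference in each direction, called list members by size, and 5 genes the study follows. How far down each list the naming went was set after the values were seen. A first draft had left out some called members whose call was lost with a library left out (CISH, GBP5 and TRIM22 among them); those larger than a named member of the same list and direction were put back, and others that are smaller remain unnamed, so the named genes hold their calls more often than the lists do. Without KM-H2_0, 53 of all 183 called list members lost their call, against 22 of the 161 called genes among the 176 examined by name. A few genes are not reported here, whatever their size. Small RNA genes (182 tested, 1 higher and 2 lower, against 11.1% and 9.22% of all tested genes), mitochondrial genes, immunoglobulin and T-cell receptor segments and unnamed loci were not named. The reading of unnamed loci as LINC, open reading frame, FAM, KIAA, antisense, RNVU and SNAR symbols was settled after the ranking had been seen; it left out LINC01287, at 397.9 and 207 FPKM in KM-H2 and at most 0.174 in the other cHL libraries. Uncalled genes that the text names, the histone and ribosomal protein classes, the runs of neighbouring genes and the limits for traces were chosen after the data were seen.

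Columns carry the suffixes 0 and 1, which are not stated to be the replicate numbers of the titles. Across genes, which are not independent replicates, the suffix 1 minus suffix 0 differences correlated at 0.31 between KM-H2 and L428, 0.44 between KM-H2 and L1236 and 0.72 between L428 and L1236. Pearson's r between libraries across tested genes was 0.91 within KM-H2, 0.896 within L428 and 0.908 within L1236, and 0.686 to 0.829 between lines. Symbols were matched to GRCh37 positions of a GENCODE annotation for 22379 of 26210 genes (85.4%), and the authors' gene models may differ from these. Alternatives changed the pseudocount, the filter, the scaling, the variance model, the call rule, the libraries in the fit and the block.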

Additional observations from a re-analysis of the deposited data

How the results depend on the processing

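Counts of 1495 higher and 1242 lower genes stayed within 1.5 times under pseudocounts of 0.1 and 0.5, either other filter, quantile normalization, median scaling, no variance trend, the small RNA genes left out and all 12 libraries in the fit. With L428 and L1236 as a single group they were 943 and 549, since the gap between these lines then counted as spread. With both pairwise contrasts required the lower count was 667, and with a size of at least 2 the counts were 538 and 390. With L428_1 and L1236_1 left out together, an alternative chosen after seeing the data with fewer libraries, they were 275 and 313, and limma gave 0 genes for KM-H2 against L428 (3042 at unadjusted p < 0.05), 299 for KM-H2 against L1236, 196 for L428 against L1236, 0 apart in L428 (2707 at unadjusted p < 0.05) and 246 apart in L1236. Leaving out each library in turn gave 1134 to 1487 higher and 877 to 1293 lower genes, 1884 to 2592 for KM-H2 against L428, 1673 to 3194 for KM-H2 against L1236 and 1022 to 2356 for L428 against L1236. It gave 988 to 2018 genes apart in L428 and 963 to 2145 in L1236, and a line left with a single library was assumed to vary like the others. The counts of higher and lower genes with a library left out include genes that were not called with all 6. Fewer of the 1495 and 1242 genes than these counts give were therefore called again. PRAME, not called, changed sign without KM-H2_1 and without L1236_0, over a range of -0.24 to 0.41 with 1 library left out, and the cause was not tested.

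The replicate block by the replicate number of the titles could not be run, because the columns carry suffixes instead. A replicate block by column suffix was chosen after seeing the data, since suffix 1 minus suffix 0 differences correlated between lines at 0.31 to 0.72. Ribosomal protein genes did not shift alike, with median suffix 1 minus suffix 0 differences of 0.62 in KM-H2, -1.76 in L428 and -0.27 in L1236. The block may thus join unlike libraries and does not remove such a shift. It gave 1577 higher and 1295 lower genes. For the pairwise contrasts in the order above it gave 3773, 3742 and 3007 genes, and 2236 and 2304 genes apart in L428 and L1236. It changed no call of a named gene. Of the 176 genes examined by name 161 were called, and of these 43 lost their call with L428 and L1236 as a single group, 27 with both pairwise contrasts required and 109 with L428_1 and L1236_1 left out; of all 183 called list members 79, 61 and 135 did. Depth is unknown in absolute terms, so low values carry no interval.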
